A study of Mus musculus with 8 samples.

Results

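Accessible chromatin was examined around 8 genes of the senescence and p53 barrier, namely Cdkn2a, Cdkn2b, Cdkn1a, Cdkn1b, Trp53, Mdm2, Rb1 and Bmi1, out of 21938 protein-coding genes in the annotation. They were chosen by name for their roles in senescence and in the p53 pathway, and the accessible regions that overlapped each gene body or the 50 kb to each side of it were taken from the peak lists. Open chromatin was mapped by ATAC-seq, an assay based on a transposase that inserts adapters where DNA is exposed. The 8 libraries fell into 4 groups of 2. They were C57BL/6J-OG2 mouse embryonic fibroblasts (MEFs), the same kind of fibroblasts 5 and 10 days after infection with pMXs retroviruses carrying Oct4, Sox2, Klf4 and Myc (OSKM), and mouse embryonic stem cells (ESCs). OG2 animals carry a GFP reporter driven by Oct4 sequence. The infected cells also received a FLAG control vector and stayed in ESC medium with vitamin C, so the day 5 and day 10 groups differed from MEFs in medium as well as in the 4 factors. Of the 2 ESC libraries, 1 was labelled with the parent strain rather than OG2, and all groups were wild type for Jmjd3, the demethylase that the study is about. The deposited lists held 1 set of peaks per group, shared by both libraries, so the spread between libraries was not visible and no difference below could be tested against it.

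These genes act on a common brake. The products of Cdkn2a, Cdkn2b, Cdkn1a and Cdkn1b block cyclin-dependent kinases, which keeps the retinoblastoma protein RB1 active and E2F target genes shut. Cdkn2a has separate start sites for p16Ink4a and for p19Arf, and p19Arf frees p53 (Trp53) from its ubiquitin ligase MDM2, after which p53 switches on Cdkn1a and Mdm2 itself. BMI1 is a Polycomb protein that represses Cdkn2a. Fibroblasts in culture gradually engage this brake, whereas ESCs divide with little restraint from it, and the brake is known as a barrier to reprogramming.

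Peaks were dense around the 8 genes in every group. The windows overlapped for Cdkn2a and Cdkn2b, which left 7 separate stretches of 936.6 kb in total, or 0.0344% of the genome. The MEF list placed 50 peaks in them, the day 5 list 37, the day 10 list 42 and the ESC list 48. This corresponded to 53.4, 39.5, 44.8 and 51.2 peaks per Mb, against 20.7, 13.3, 12.9 and 17.8 per Mb over the genome. Over all protein-coding genes with the same 50 kb rule, the median number of peaks was 5, 3, 3 and 4, and over the 8 genes it was 6.5, 5.5, 5.5 and 6. The lists give no read numbers, so the depth behind each of them is unknown, and a longer list can come from deeper libraries. The MEF and ESC lists were longer than the day 5 and day 10 lists. As a check of the labels, the start sites of 6 of 6 fibroblast markers lay under a MEF peak and those of 6 of 6 pluripotency markers under an ESC peak. In ESCs 2 of 6 fibroblast markers were covered, and of 3 markers of blood, endothelium and keratinocytes none was covered in any list. At day 10 the fibroblast markers were at 2 of 6. The pluripotency markers were at 2 of 6 at day 10, the same number as in MEFs and at day 5. The cells at day 10 thus carried neither full set.

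**Figure D1:**
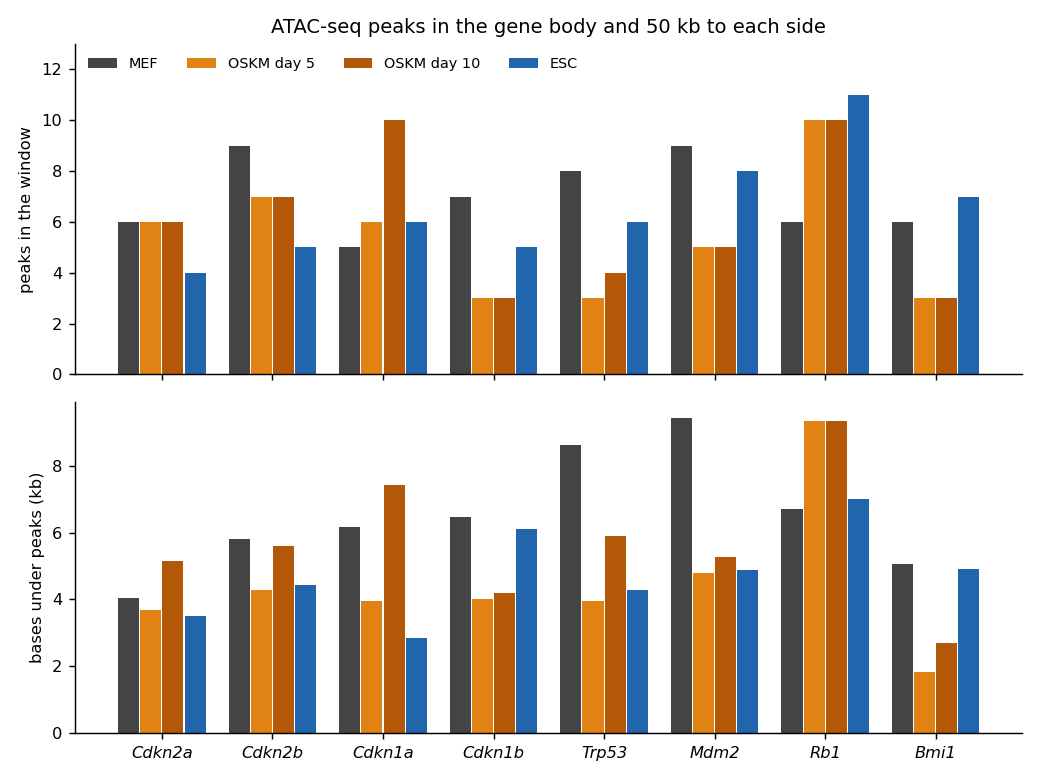
Number of peaks (top) and kilobases under peaks (bottom) in the gene body and 50 kb to each side, for the 8 genes in the 4 lists. Rb1 (6, 10, 10 and 11) and Cdkn1a (5, 6, 10 and 6) had more peaks on both days and in ESCs than in MEFs, while Cdkn1b, Trp53, Mdm2 and Bmi1 had their lowest numbers on the OSKM days. In lists of equal size Trp53, Mdm2 and Bmi1 no longer had fewer peaks on the days than in MEFs.

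The genes followed different courses. In the order MEFs, day 5, day 10 and ESCs, Cdkn1b had 7, 3, 3 and 5 peaks. Trp53 had 8, 3, 4 and 6 and Mdm2 9, 5, 5 and 8, and Bmi1 had 6, 3, 3 and 7. In these 4 genes the days had fewer peaks than either end state. Cdkn1a had 5, 6, 10 and 6 peaks, and this order depended on the cut-off, since it had 5, 4, 6 and 3 peaks at a q-value of 0.01 and 4, 6, 10 and 2 in lists of equal size. Rb1 had 6 in MEFs, 10 on both days and 11 in ESCs. Cdkn2b had 9, 7, 7 and 5 and Cdkn2a 6, 6, 6 and 4, the lowest number of all 8 genes in ESCs. This ranking was not kept under the alternatives. In ESCs Cdkn2a and Cdkn1a both had 3 peaks at a q-value of 0.01. In lists of equal size Cdkn1a had fewer there than Cdkn2a (2 against 3). With each list cut to its 35226 highest-scoring peaks, the size of the shortest list, the MEF numbers of Trp53, Mdm2 and Bmi1 became 3, 4 and 2, no higher than their day 5 numbers of 3, 5 and 3. That of Cdkn1b was still higher (5 against 3). In ESCs Trp53 then had 4 peaks, as at day 10, and Mdm2 5, as on both days. Cdkn1b and Bmi1 still had more in ESCs (5 each) than on either day (3 each). Cdkn2a and Cdkn2b then had 3 and 4 peaks in MEFs and in ESCs and 5 and 6 at day 5. The additional MEF peaks around Trp53, Mdm2 and Bmi1 were thus peaks of the lower part of a longer list.

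A start site of 8 of 8 genes lay under a peak in MEFs, at day 5 and at day 10, where 60.0%, 52.1% and 56.0% of protein-coding genes had one. In lists of equal size the MEF number was 7 of 8, as Bmi1 lost its peak. In ESCs it was 6 of 8, against 55.8% of all genes, and Trp53 and Bmi1 were the exceptions. The 6 other genes were covered in all 4 lists, as were 46.8% of protein-coding genes. The 8 genes have 35 annotated start sites. Of these, 15 were under a peak in all 4 lists (33.8% of all start sites of protein-coding genes), 5 were open in MEFs and on both days but not in ESCs (3.37%), and none was open on both days alone (0.309%). A further 2 were open at day 10 only, 1 in MEFs and at day 10, 1 in MEFs only, and 11 in no list. The 5 start sites that were missing only from ESCs belonged to Cdkn2a (p16Ink4a), Trp53 (3 sites) and Bmi1. The 3 Trp53 sites lay within 46 bp under the same peaks, and several of the 15 were Mdm2 sites under the same peaks. Start sites are thus not independent counts. Of the 5, only the Trp53 sites kept the pattern in lists of equal size, where the MEF peaks at p16Ink4a and Bmi1 were lost.

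At Cdkn2a, on the minus strand of mm10 chromosome 4, the 2 promoters parted. The p19Arf start site at chr4:89294653 was under a peak in every list, with deposited fold enrichments of 4.18 (MEFs), 3.28 (day 5), 3.77 (day 10) and 4.26 (ESCs). The peaks there were 1271, 1210, 1287 and 1352 bp wide. The p16Ink4a start site at chr4:89282192 was under a peak of 468 bp in MEFs, 511 bp at day 5 and 653 bp at day 10, with fold enrichments of 2.80, 3.44 and 3.62. In ESCs it had no peak, and the nearest lay 8414 bp away. By score, the p16Ink4a peak stood at 84.06% of the MEF list counted from the top, at 69.11% of the day 5 list and at 51.08% of the day 10 list (ranks in lists of different length are not comparable). When each list was cut to equal size the MEF peak was lost and the site was open on the OSKM days only, while at a q-value of 0.01 it was kept in all 3. A gene with one start site open in all 4 lists and another missing only from ESCs was uncommon, at 3.33% of protein-coding genes.

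The sequences before these start sites are shown because the promoters differ in base composition. Each stretch is the 150 bases directly before the RefSeq start site on GRCm38, on the minus strand, with CpG dinucleotides in capitals.
p19Arf, chr4:89294620-89294769: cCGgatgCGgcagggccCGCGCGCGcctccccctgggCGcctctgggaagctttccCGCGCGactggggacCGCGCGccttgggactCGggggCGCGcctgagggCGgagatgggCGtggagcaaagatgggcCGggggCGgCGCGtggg
p16Ink4a, chr4:89282193-89282342: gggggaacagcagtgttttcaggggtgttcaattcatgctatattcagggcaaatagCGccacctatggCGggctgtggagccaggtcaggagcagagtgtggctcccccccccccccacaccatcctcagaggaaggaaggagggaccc
The p19Arf stretch held 22 CpGs and the p16Ink4a stretch 2. Over the 250 bases before the start the numbers were 40 and 7, and 98.7% and 53.7% of the 32851 RefSeq promoters had fewer. These 250 bases were covered in full at p19Arf in all 4 lists. At p16Ink4a they were covered in full in MEFs and on both days, and by 0 bases in ESCs. The study's primer pair for JMJD3 binding at the p16Ink4a start site amplifies 61 bases at chr4:89282369-89282429, shown on the minus strand with both primer sites in capitals.
amplicon: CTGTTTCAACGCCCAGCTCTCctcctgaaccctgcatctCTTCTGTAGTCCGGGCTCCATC
All 61 bases lay under the peaks of MEFs, day 5 and day 10, and 0 under an ESC peak.

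**Figure D2:**
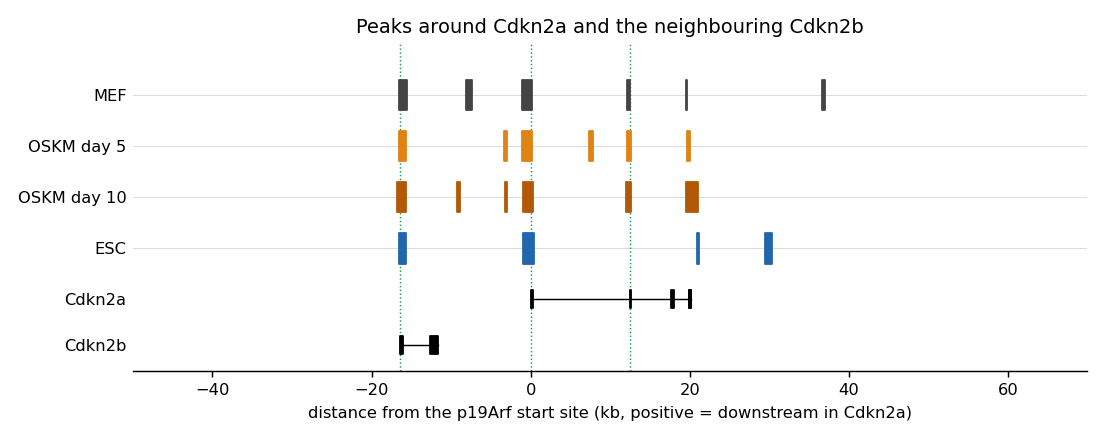
Peaks of the 4 lists (coloured blocks) in the Cdkn2a window against the distance from the p19Arf start site in kb, with exons in black and start sites as dotted lines. The p19Arf and Cdkn2b start sites carried a peak in all 4 lists, and the p16Ink4a start site, the dotted line on the right, in MEFs and on both OSKM days but not in ESCs.

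Around these promoters the flanking peaks changed from list to list. Inside Cdkn2a, an intronic region at chr4:89286856-89287292 was open at day 5 only. Upstream of p19Arf, chr4:89297565-89297980 was open at day 5 and day 10, chr4:89303558-89303956 at day 10 only, and chr4:89302013-89302776 in MEFs only. At a q-value of 0.01 the region chr4:89297565-89297980 lost its day 10 peak and was open at day 5 only. With a joining distance of 1000 bp the regions chr4:89302013-89302776 and chr4:89303558-89303956 fell together into a region open in MEFs and at day 10. The widest region, chr4:89273447-89275096 at the end of the gene, counted as shared by all 4 lists. Its peaks were 54 bp in MEFs, 297 bp at day 5, 1484 bp at day 10 and 332 bp in ESCs, and the MEF and ESC peaks did not touch. Of these peaks, only that of day 10 passed a q-value of 0.01. Downstream of the gene, 3 copies of the AP-1 motif TGACTCA (both strands searched) lay in a region open in MEFs only at chr4:89257614-89258074. The protein-coding genes whose bases under peaks over the 4 lists came closest to those of Cdkn2a (4038, 3670, 5164 and 3495 bp) were Gprc5a, Syncrip and Pmm1, with summed differences of 384, 436 and 547 bp over 4 points, which is a likeness of amount only.

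Cdkn2b encodes p15Ink4b and lies next to Cdkn2a. Its start site at chr4:89311039 carried the strongest peaks of the locus. They were among the top 2.56% of the MEF list, 0.43% of the day 5 list, 4.55% of the day 10 list and 1.32% of the ESC list by score, with fold enrichments of 5.41, 5.99, 4.57 and 5.11. The gene itself held no other peak. Its window held 13 regions, 5 of them MEF-specific, 1 ESC-specific, 4 common and 3 transient. MEF-specific here means that MEFs had a peak and ESCs none, ESC-specific the reverse, common a peak in both, and transient a peak on an OSKM day alone. Upstream of Cdkn2b the widest region, chr4:89350558-89352066, was common.

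Cdkn1a encodes p21, the main p53 target among the cell cycle inhibitors, and is on the plus strand of chromosome 17. Its main start sites at chr17:29093769 and chr17:29093781 were under a peak in all 4 lists. That peak was 2324 bp wide in MEFs, 2058 bp at day 5 and 2328 bp at day 10, but 442 bp in ESCs. In the first 3 lists it was wider than the start-site peaks of 94.0%, 97.1% and 96.8% of genes with one, and in ESCs wider than those of 6.5%. Its fold enrichments of 2.51, 2.28, 2.33 and 2.97 were each below the median of the list. By score it stood at 28.23%, 88.12%, 48.8% and 55.18% from the top. The ratio of ESC to MEF width was 0.19, against a median of 0.782 over the 11458 genes with a start site under a peak in both lists, and 0.9% of these genes had a smaller ratio. A second ESC peak of 332 bp lay at the far end of the stretch. Between the ESC peaks, the part of the first intron that was open in MEFs and on both days had no ESC peak. That part holds AP-1 motifs 759 and 1450 bp after the start site, open in all lists but ESCs, and another 1794 bp after it was open in all 4. The first 2 are shown with the motif in capitals.
AP-1 at chr17:29094537-29094543: ggcgaggaggTGACTCAttgtgacaag
AP-1 at chr17:29095228-29095234: tccagggatcTGACTCAtcgcgtgctt

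An upstream promoter of Cdkn1a had peaks on the OSKM days only. The region chr17:29090718-29091241 was transient, with a peak of 250 bp at day 5 and 505 bp at day 10 and none in MEFs or ESCs. The day 10 peak covered the annotated start sites at chr17:29090976 and chr17:29090979, and the day 5 peak began 13 bp after the second of them. The peaks ranked low, at 95.83% of the day 5 list and 94.17% of the day 10 list, and neither passed a q-value of 0.01. This region holds a p53 response element, here a run of 2 p53 half-sites without a spacer with at most 1 mismatch and the core bases of both half-sites intact. It is shown with 10 bases to each side and the element in capitals, on the plus strand.
Cdkn1a, chr17:29090918-29090957: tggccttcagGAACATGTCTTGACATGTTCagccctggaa
The element was centred 39 bp before the start site, under the day 10 peak and under no other. The day 5 peak lay on its downstream side. Of the 32851 RefSeq promoters, 0.0578% had such an element in the 250 bases before the start.

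Further p53 elements under peaks were found at 2 more places. A second in the Cdkn1a window was in the region chr17:29078339-29079352, over a start site of Trp53cor1, a non-coding RNA gene that p53 activates. Mdm2 had 1 in an upstream region at chr10:117717560-117718552.
Trp53cor1, chr17:29079029-29079068: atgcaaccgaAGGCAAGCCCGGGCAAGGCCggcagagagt
Mdm2, chr10:117717726-117717765: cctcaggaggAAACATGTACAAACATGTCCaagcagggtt
The Trp53cor1 element was under a peak in MEFs, at day 5 and at day 10, and the Mdm2 element in MEFs and at day 10. None of the 3 was under an ESC peak. Of 8 such elements in all windows, 3 were under a peak in any list. With up to 2 mismatches allowed there were 17 elements, of which 6 were under a peak in any list. Of these, 2 were under an ESC peak, both in Rb1, so the absence from ESC peaks depended on the mismatch rule. In the 200 bp around the centre of a region, 1 of 84 regions held an element, against 0.0669% of all 101701 regions, and over whole regions 3 of 84, against 0.249%.

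Other regions near Cdkn1a differed between the lists as well. At chr17:29080852-29081397, 9852 bp before the upstream start site, both OSKM days and ESCs had a peak and MEFs had none, and the neighbouring chr17:29081810-29082244 was open in MEFs only. The gap between these neighbours was only just above the joining distance of 400 bp. With a joining distance of 1000 bp they fell together into a common region, so their opposite patterns depended on this rule. A region over the last exon, chr17:29100312-29100850, was open at day 5 and in ESCs. Of the 13 regions in the window, 5 were transient, the highest number of the 8 genes, and 4 of these lay upstream of the gene or at its upstream start. At a q-value of 0.01 the transient regions chr17:29044986-29045351, chr17:29090718-29091241 and chr17:29134204-29134678 lost all their peaks. The last-exon region and the Rb1 region chr14:73313392-73314617 lost their ESC peaks there and became transient. The ranking of Cdkn1a above Rb1 thus depended on the cut-off.

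**Figure D3:**
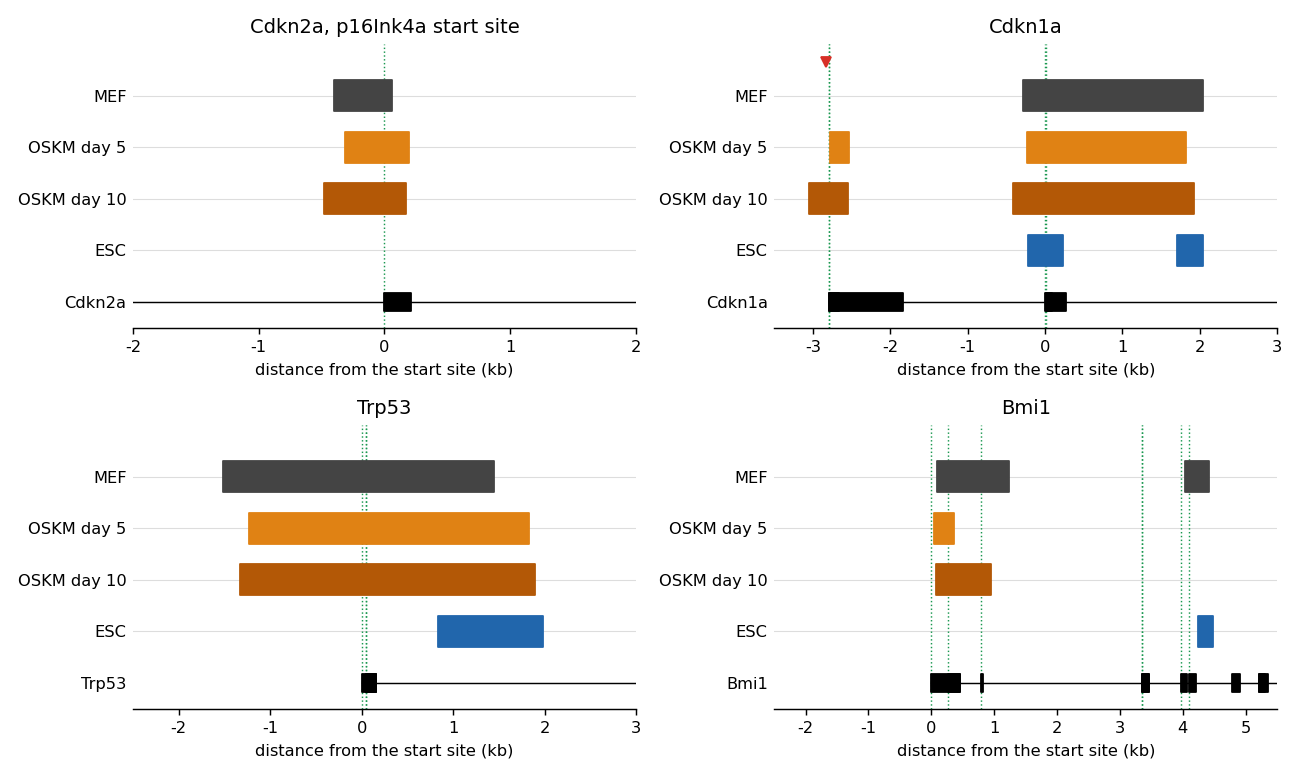
Peaks of the 4 lists (coloured blocks) near the start sites of p16Ink4a, Cdkn1a, Trp53 and Bmi1 against the distance from the start site in kb, with exons in black, annotated start sites as dotted lines and the p53 element of Cdkn1a as a red triangle. In ESCs the start sites of p16Ink4a and Trp53 and the first start sites of Bmi1 were free of peaks, and the Cdkn1a peak was narrowed to 442 bp.

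Trp53, on the plus strand of chromosome 11, had one of the widest start-site peaks. The peak over its first start site at chr11:69580359 was 2961 bp wide in MEFs, 3063 bp at day 5 and 3225 bp at day 10, wider than those of 98.5%, 99.8% and 99.6% of genes. These peaks were wide but not strong. Their fold enrichments of 2.57, 2.46 and 2.30 were below the list medians of 3.32, 3.72 and 3.36. By score they stood at 34.65%, 84.58% and 49.91% of their lists from the top. The ESC peak was 1147 bp wide and began 839 bp after that start site, inside the first intron. Wrap53, which encodes a part of the telomerase complex and starts next to Trp53 on the other strand, had no start-site peak in ESCs either. The 250 bases before the Trp53 start held 9 CpGs and were covered in full in MEFs and on both days, and by 0 bases in ESCs. The ESC peak holds an octamer, the motif ATGCAAAT bound by OCT4, which was also under the peaks of both OSKM days but not under that of MEFs.
Trp53 intron, chr11:69581977-69582004: atgccttcttATGCAAATagcctccctg
Farther away in the Trp53 window, the start sites of Efnb3 (an ephrin) and Sat2 (an acetyltransferase) were under a peak in MEFs only, that of Fxr2 (an RNA-binding protein) in all 4 lists, and that of Atp1b2 (a subunit of the sodium pump) in all but day 5. No region specific to one end state or to the OSKM days lay inside Trp53 or within 10 kb of its start sites.

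Mdm2 is on the minus strand of chromosome 10. Of its 8 start sites, 7 fall into a cluster in the region chr10:117709750-117711679, and these were under a peak in all 4 lists. The remaining start site, at chr10:117691520, was under no peak. The peaks over the cluster were 1386, 1769, 1633 and 1452 bp wide. Its 250 bases before the first start held 29 CpGs, more than 93.2% of promoters. Inside the gene, chr10:117692519-117693226 and chr10:117703563-117703912 were open in ESCs only. The widest region, chr10:117686262-117689307, spans the end of the last exon and reaches into the neighbouring gene Cpm. It had 2731 bp of peak in MEFs, 830 bp at day 5, 785 bp at day 10 and 646 bp in ESCs, and the MEF peak was at 95.72% of its list. The 14 regions of the window held 6 MEF-specific and 5 ESC-specific ones and 0 transient ones. The start site of Slc35e3, a neighbouring transporter gene, was open in all 4 lists.

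Cdkn1b, which encodes p27, had an even simpler pattern. Its start site at chr6:134920401 had high-ranking peaks in all 4 lists, at 6.35%, 9.61%, 5.21% and 4.29% from the top, and 1442, 845, 1111 and 1069 bp wide. All 3 peaks at day 5 and all 3 at day 10 were in common regions, namely the gene's own start, the start of the non-coding RNA Lockd in the widest region at chr6:134926886-134929363, and the start shared by Gpr19 and 2810454H06Rik. The 4 MEF-specific and 2 ESC-specific regions had no peak on either day. One of them, chr6:134916969-134917282, lay 3276 bp before the start site and was open in MEFs only.

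Bmi1, on the plus strand of chromosome 2, had start-site peaks of low rank. Its first start site at chr2:18677018 was under no peak, and the nearest peaks began 82, 49 and 67 bp after it in MEFs, at day 5 and at day 10. They lay in the region chr2:18677067-18678256, with 1157, 306 and 875 bp of peak and ranks of 82.23%, 84.58% and 80.87%, and covered a second start site at chr2:18677280 in these 3 lists. The day 5 peak was wider than the start-site peaks of 1.5% of genes. In ESCs the nearest peak ended 2840 bp before the start, in the common region chr2:18671943-18674178 over the start site of the neighbouring Commd3, which is also the widest region of the window. Farther inside Bmi1, chr2:18681052-18681494 was open in MEFs and in ESCs but not on the OSKM days. If a start site within 500 bp of a peak is counted as open, Bmi1 is open in ESCs as well, through 2 internal start sites. The start site of Spag6 (a sperm flagellum gene) in the window was open in all 4 lists. One ESC-specific region at the edge, chr2:18736627-18737305, overlapped the window by its first bases only, as the window ends at 18736629.

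Rb1 stood apart from the others. The gene is 142150 bp long, longer than 92.8% of protein-coding genes, so a high number of regions is in part a matter of length. Its window held 17 regions, of which 2 were MEF-specific, 7 ESC-specific, 4 common and 4 transient. Of the 7 ESC-specific regions, 4 were already open at day 5 and 5 at day 10. Of the 15 around the other genes, 2 were open on each day, and over the genome 10.67% of this class were open at day 5 and 12.55% at day 10. Regions absent from MEFs and present on both days and in ESCs made up 2.31% of all regions. Rb1 had 4 of them, and 0.0912% of protein-coding genes (20 genes) had as many. Among the 4, chr14:73313392-73314617 counted as open in ESCs through a peak of 222 bp. That peak did not pass a q-value of 0.01 and was lost in lists of equal size, so the number 4 depended on the cut-off. The share of genes with as many such regions was not computed under these cut-offs.

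Of these 4 regions, 3 lie in Rb1 introns and 1 upstream of the gene. The intronic region chr14:73219450-73220541 ranked high in each list, at 4.86% of day 5, 3.54% of day 10 and 7.06% of ESCs. The region chr14:73313392-73314617, 11637 bp inside the gene, was at 0.94% of the day 5 list, 20.2% of the day 10 list and 93.44% of the ESC list. The region chr14:73253416-73254034 ranked at 37.57%, 20.2% and 55.18%. The upstream region chr14:73335064-73336227, over the start of the non-coding gene Gm49131, ranked at 6.2%, 10.47% and 71.61%. It holds 2 octamers, shown in capitals on the minus strand. The one nearer to Rb1 was under all 3 peaks and the other under those of day 5 and day 10.
Rb1 upstream, chr14:73335612-73335710: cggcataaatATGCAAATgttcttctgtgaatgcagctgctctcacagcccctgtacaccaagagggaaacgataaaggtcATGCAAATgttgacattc
An octamer was present in 6.45% of all 101701 regions and in 7.72% of the ESC-specific ones, counted over whole regions.

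The other intronic regions of Rb1 were seen in fewer lists. One at chr14:73319833-73320457 was open on both OSKM days, chr14:73308413-73308876 at day 5 only and chr14:73271713-73272203 at day 10 only. MEFs alone had chr14:73293191-73294083 and ESCs alone chr14:73231430-73231846. The start site at chr14:73325822 and a nearby one at chr14:73325641 were under a peak in all 4 lists, 1970, 1603, 1966 and 1716 bp wide, in the widest region of the window. Both AP-1 copies in the MEF-only intronic region were under the MEF peak. Lpar6, a receptor gene within an Rb1 intron, had its start site under a peak in all lists but ESCs. The region over it, chr14:73237728-73239455, was common all the same. Its ESC peak, at 4.0% of the list from the top, did not cover the start site. The start site of Rcbtb2, beyond the end of Rb1, was open in all 4 lists.

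**Figure D4:**
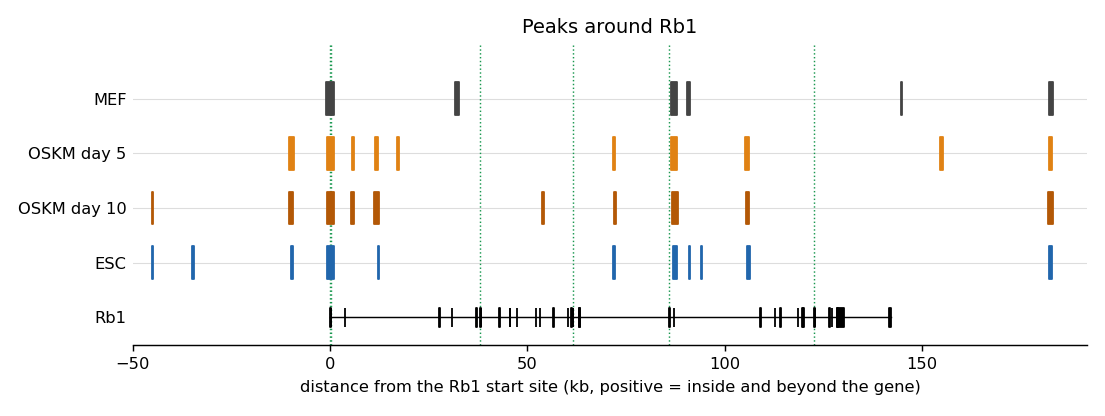
Peaks of the 4 lists (coloured blocks) around Rb1 against the distance from its start site in kb, with exons in black and start sites as dotted lines. Day 5, day 10 and ESCs share 4 regions that have no MEF peak, 1 of them upstream of the start site and 3 in introns. The ESC peak of the intronic region chr14:73313392-73314617 did not pass a q-value of 0.01 and was lost in lists of equal size.

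Joined within 400 bp, the peaks of all lists made 84 regions around the 8 genes. Of these, 25 were MEF-specific (29.8%, 95% Wilson interval 21.0 to 40.2%), 22 ESC-specific (26.2%, 18.0 to 36.5%), 25 common (29.8%, 21.0 to 40.2%) and 12 transient (14.3%, 8.37 to 23.3%). Over the genome the shares were 36.4%, 28.4%, 19.1% and 16.1%. The interval of the common class lay above the genome share, and those of the other classes included theirs. This did not hold under every rule. Where a list had to cover 50% of a region, the common class was 16 of 84 regions (19.1%, 12.1 to 28.7%) against 12.7% over the genome, and at a q-value of 0.01 it was 19 of 73 (26.0%, 17.3 to 37.1%) against 18.9%, so both intervals included the genome share. In lists of equal size the common class was 17 of 64 (26.56%, 17.30 to 38.48%) against 17.25%, and the MEF-specific class was below its genome share (15.6%, 8.71 to 26.4%, against 28.4%). The intervals cover counting error only, and neighbouring regions are not independent. More than 5 kb from any start site the common class made up 1 of 33 regions (3.03%, 0.537 to 15.3%), an interval that included the 7.32% over the genome. Regions inside the 8 genes but over none of their start sites were 7 ESC-specific, 1 MEF-specific, 4 common and 4 transient. Those over a start site of the 8 genes were 2 MEF-specific, 8 common and 1 transient. Regions outside the 8 genes that covered no annotated start site, at any distance from one, were 19 MEF-specific, 11 ESC-specific, 5 common and 6 transient. Shares by position were not computed over the genome. Rb1 accounted for 4 of the 7 ESC-specific regions inside genes. Of the 25 MEF-specific regions 5 were open on each OSKM day, against 14.25% and 14.84% over the genome.

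**Figure D5:**
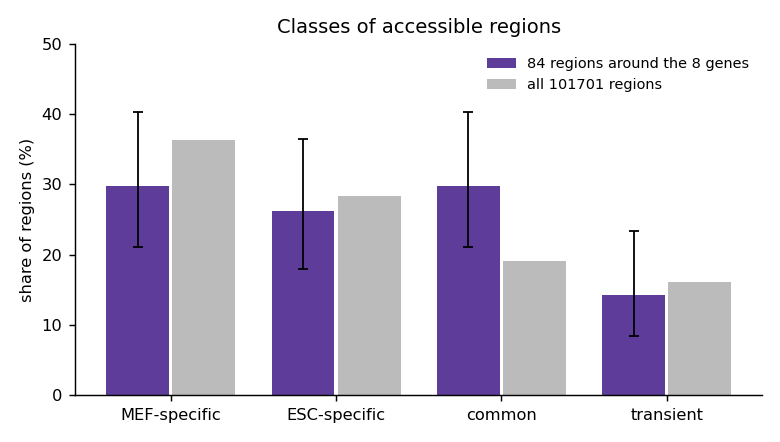
Share of regions (percent) in each class for the 84 regions around the 8 genes, with 95% Wilson intervals as error bars, and for all 101701 regions. The common class was 29.8% around the 8 genes and 19.1% over the genome.

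The sequence under the classes differed in a few motifs, each searched on both strands and counted on its own where matches overlap. In the 200 bp around the centre, AP-1 (TGACTCA) was present in 4 of 25 MEF-specific regions and in 1 of 22 ESC-specific ones, against 23.0% and 3.94% of all regions of these classes. Over whole regions it was in 10 and 4, against 47.0% and 11.3%. The E2F motif GCGGGAAA was found at the centre of 2 of 25 common regions, against 0.935% of all common regions. Over whole regions it was in 7 of the 25, against 5.37%, and in no region of the other classes. Those over start sites of the 8 genes were at p19Arf, Rb1 and Cdkn1a. The rest lay outside the 8 genes, in the windows of Trp53 and Rb1. This motif contains a CpG, and the 25 common regions were richer in CpGs than all common regions (medians of 61.7 and 45.0 per kb). Whether that difference bears on the motif shares was not tested. At p19Arf and at Rb1 the motif lay next to the start site and was under a peak in every list.
p19Arf, chr4:89294701-89294728: ccccagtcgcGCGGGAAAgcttcccaga
Rb1, chr14:73325803-73325830: cgggccaaccGCGGGAAAacgtcacttc
The KLF motif CCACNCCC was at the centre of 6 of 84 regions, against 8.38% of all regions, and anywhere in 28, against 26.6%. An octamer was at the centre of 2, against 2.18%, and anywhere in 6. CTCF, by its core motif, was at the centre of 0 regions, against 1.15%, and had 1 match elsewhere, in a common region of the Trp53 window. Whether any of these motifs was bound was not measured.

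Genes of the same pathways were described by fixed lists. Of 3 further CDK inhibitors, 3, 2, 3 and 2 had a start site under a peak in the order above, and Cdkn1c (p57) was the one missing at day 5 and in ESCs. Of 12 cyclin, CDK, RB family and E2F genes the numbers were 11, 11, 12 and 10. Ccnd2 (cyclin D2) lacked an ESC peak, and Ccnd1 (cyclin D1) had one at day 10 only. Of 9 p53 regulators and relatives, 7 were covered in each list, and the p53 relatives Trp63 and Trp73 in none. Of 16 p53 target genes, 15, 15, 14 and 13 were covered, where the death genes Bax and Tnfrsf10b had no start-site peak in ESCs. All of the 12 regulators of Cdkn2a were covered in MEFs and on both days and 11 in ESCs, the exception being Pcgf2, a relative of Bmi1. Of 8 genes of the senescence-associated secretory programme, 5, 3, 3 and 3 were covered. Ccl2, a chemokine, was open in MEFs only and Il6, a cytokine, in all but ESCs. Over all 60 genes the numbers were 53, 50, 51 and 46, and 45 were covered in all 4 lists. The shares over all protein-coding genes were those given above, 60.0%, 52.1%, 56.0% and 55.8%, and 46.8% for all 4 lists.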

How the data were processed

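ATAC-seq reads were mapped to mm10 by the authors (Bowtie2 2.2.0 in the submitters' processing notes), filtered for mapping quality, and mitochondrial and multiply mapped reads were removed. The peak caller was not given in the sources used here. The labels describe ESCs on feeder fibroblasts and the methods ESCs on gelatin in 2i/L medium. The authors deposited 1 list per group in broad-peak layout, each peak carrying a score, the −log10 of its q-value (never below 1, a q of 0.1) and its fold over background, a ratio. Peak names point to replicate 1 peaks cut to their overlap with replicate 2, so the deposited score and fold may belong to a wider peak. They ranked and filtered peaks within a list, ranks being in percent from the top, and are printed as deposited without comparison between lists. No unmatched columns were present (0 columns).

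Peaks were assigned to a gene where at least 1 bp overlapped the gene body or 50 kb to each side. Start sites came from GENCODE mouse release M21, and sequence from GRCm38.p6 with RefSeq promoters, which matched 7 of the 8 genes. Peaks within 400 bp were joined into regions. Motifs were searched in the whole region and in 200 bp around its centre. Counts and shares are descriptions without a test, since each group has 1 list. The members, gene lists and rules were chosen with earlier results of these data known. Calculations used Python 3.11.15, pandas 2.3.3, numpy 2.4.6, pysam 0.24.0 and samtools 1.23.1, and interval and motif code was tested on simulated data. Named genes were the 8 members, list genes whose start sites differed between MEFs and ESCs, protein-coding neighbours with an open start site, the 3 genes nearest to Cdkn2a in peak bases, and regions at start sites, within 10 kb of them or widest in a window. Ccnd1, Trp63, Trp73, Cpm and the non-coding neighbours Trp53cor1, Lockd, Gm49131 and 2810454H06Rik were named outside this rule, after their values were seen. Windows of 10 and 100 kb, a q-value of 0.01, equal list sizes, other joining distances and other start-site rules were tried as alternatives.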

Additional observations from a re-analysis of the deposited data

How the results depend on the processing

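No paired analysis was possible because each group has 1 peak list while its 2 libraries are numbered in the labels, and for the same reason leaving out a replicate was not run. Of 82 values recomputed under an alternative, 55 stayed within 1.5 times of the value reported and 27 did not. A q-value of 0.01, other joining distances, the midpoint rule and other start-site rules moved none of the values pooled over the 8 genes beyond that. Of the 32 peak numbers of single genes, 3 moved beyond it at a q-value of 0.01 (Cdkn1a at day 10 to 6 and in ESCs to 3, and Mdm2 in ESCs to 5), 7 in lists of equal size and 17 with a 10 kb window. Smaller and larger windows hold fewer and more peaks by construction. In MEFs, at day 10 and in ESCs a 10 kb window held 25, 26 and 27 peaks, and in MEFs and ESCs 29100 and 21323 bp under peaks. A 100 kb window held 80, 62, 71 and 75 peaks in the order MEFs, day 5, day 10 and ESCs, and 75068, 49160, 63323 and 51844 bp. With a 10 kb window the MEF-specific, ESC-specific, common and transient regions numbered 9, 10, 16 and 7. With lists of equal size MEFs had 27 peaks, fewer than the 36 of day 5 and the 42 of day 10, and MEF-specific and transient regions numbered 10 and 21. When a list had to cover 50% of a region, 16 regions were common. Over whole regions, which are longer than the central 200 bp, the number with AP-1, octamer, KLF, E2F, CTCF and p53 motifs was 20, 6, 28, 7, 1 and 3. The unknown depth of the libraries limits every count, since a missing peak can be a region below the threshold of a shallower library.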
